A study of Mus musculus with 4 samples.

Results

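Acyl-CoA thioesterases are the enzymes that split a fatty acyl-CoA into a free fatty acid and coenzyme A, and 9 of their genes, Acot1, Acot2, Acot3, Acot4, Acot7, Acot8, Acot9, Acot11 and Acot13, were followed here in the early postnatal mammary gland. All probe sets annotated to a single one of these genes were taken, which gave 10 of 45141 probe sets on the array and covered 8 of the 9 genes, out of 17097 genes with a probe set of their own. Acot4 had no probe set of its own and was not analysed here, because 2 of the 3 probe sets that name a member together with another gene are shared by Acot4 and Acot3. The family was chosen by the measured difference between genotypes of Acot1 and of an Acot2 probe set on these arrays, and the other members by their family name. The difference between genotypes is therefore described for them and not tested.

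Whole inguinal mammary glands were taken at postnatal day 10 and their RNA was measured in 2 groups of 2 arrays each. The knockout mice, Mt1-mmp(-/-), lacked the gene in every tissue, and the wild-type mice, Mt1-mmp(+/+), were their littermates. Mt1-mmp is listed on the array as Mmp14 and encodes a collagen-degrading protease anchored in the cell membrane. All mice were of an outbred Swiss Black background, so littermates can differ at many other loci, and the whole gland was homogenised with its epithelium, fat, vessels and any adhering tissue. The labels call the arrays of a group biological replicates and do not say how many mice stand behind each.

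Thioesterases work against the acyl-CoA synthetases, which attach coenzyme A to fatty acids when these enter a cell, and so help to set how much acyl-CoA, free fatty acid and free coenzyme A each compartment holds. The genes fall into 2 structural types. Type I, which includes Acot1 to Acot4, has an alpha/beta-hydrolase fold and forms a cluster of close relatives, with Acot1 in the cytosol, Acot2 in mitochondria and Acot3 and Acot4 in peroxisomes. Type II, which includes Acot7 to Acot13, has the hotdog fold. In mouse liver Acot1 is known to be induced by fasting and by ligands of the nuclear receptor PPAR-alpha, and Acot11 was described as a thioesterase that brown fat makes in the cold.

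The 2 genes at the centre of the results lie next to each other on chromosome 12. Acot2 occupies chr12:83987861-83993877 and Acot1 chr12:84009502-84017670 in the assembly GRCm38.p6, with 15.6 kb between them. Their promoters are shown because Acot1 and the s-type probe set of Acot2 were higher in the same arrays, together with that of Acot3, which was high in only 1 of them. Each runs from 250 bases before to 50 bases after the start site on the plus strand, 5′ to 3′, from RefSeq (GRCm38.p6), at chr12:84009252-84009551 for Acot1, chr12:83987611-83987910 for Acot2 and chr12:84051894-84052193 for Acot3. Acot3 has 2 promoter sequences among those used, of which 1 is shown and described here. Capitals mark CCAAT or AGGTCA, read on either strand.
Acot1: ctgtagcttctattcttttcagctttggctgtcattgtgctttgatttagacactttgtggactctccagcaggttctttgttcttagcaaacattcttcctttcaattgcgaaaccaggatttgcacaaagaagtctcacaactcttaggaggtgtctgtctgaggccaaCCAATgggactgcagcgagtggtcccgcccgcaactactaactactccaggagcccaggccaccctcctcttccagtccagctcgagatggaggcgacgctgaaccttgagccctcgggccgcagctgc
Acot2: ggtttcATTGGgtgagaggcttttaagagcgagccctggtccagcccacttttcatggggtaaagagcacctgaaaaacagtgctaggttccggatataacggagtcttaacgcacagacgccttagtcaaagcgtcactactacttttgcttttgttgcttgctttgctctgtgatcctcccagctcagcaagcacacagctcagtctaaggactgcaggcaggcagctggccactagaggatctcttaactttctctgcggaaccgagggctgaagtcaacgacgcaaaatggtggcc
Acot3: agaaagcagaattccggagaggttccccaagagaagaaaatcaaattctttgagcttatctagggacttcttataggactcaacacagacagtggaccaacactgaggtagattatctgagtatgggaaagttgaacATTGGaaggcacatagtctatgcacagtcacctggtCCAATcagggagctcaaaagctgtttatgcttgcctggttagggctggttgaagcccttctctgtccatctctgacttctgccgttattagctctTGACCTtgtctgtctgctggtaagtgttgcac
CCAAT starts at position -79 in Acot1 and at -77 in Acot3, both on the plus strand, whereas the Acot2 window has it only on the minus strand, at -244. It occurs in 37.4% of 32851 promoter windows of this length. AGGTCA, the half-site that nuclear receptors such as the PPARs can bind, was found in the Acot3 window, on the minus strand from position 19, but not in those of Acot1 or Acot2, where 16.3% of all windows hold it. The forkhead motif GTAAACA (3.65% of all windows, either strand) and TATAAA (13.6%) were in none of the 3. The longest run of bases that the Acot1 and Acot2 windows share is 9, and the other pairs among the windows of Acot1 to Acot5 share runs of 7 to 10.

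Acot1 was higher in both knockout arrays, and its mean RMA values differed 5.83-fold. Its only probe set gave log2 values of 7.41 and 7.52 in the knockout arrays, against 5.05 and 4.80 in the wild-type arrays. Both knockout arrays lay far above both wild-type arrays, and the difference of 2.54 ± 0.14 on the log2 scale (SE from the spread within both groups, n = 2 per group) was many times the gap within either pair. The wild-type values sit at the array medians of 4.92 and 4.92, where the RMA summary compresses differences, and without detection calls the fold can be read only on the RMA scale. The wild-type mean of 4.93 lay just under the brightness limit of 4.94, the median of all probe-set means that a set had to reach to be tested, so the set passed only through its knockout values. In a bulk sample, a change in the number of cells of a type and a change in RNA per cell cannot be told apart.

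Acot2 gave different answers in its 2 probe sets. The set whose identifier carries the suffix s, which Affymetrix uses for probes that match more than 1 transcript, gave 7.85 and 7.59 in the knockout, against 5.92 and 6.37 in the wild type. Both knockout arrays were again the higher ones, by 1.57 ± 0.26 or 2.96-fold (SE, n = 2 per group). The plain set gave 5.51 and 5.05 in the knockout and 5.09 and 5.39 in the wild type. These values overlapped, with a difference of 0.04 ± 0.27. Since Acot1 and Acot2 are near-identical over much of their coding sequence, which of them supplied the signal of the s set was not tested. The plain set did not separate the genotypes. Its mean of 5.26 lay close to the brightness limit of 4.94, so its values do not show whether the Acot2 transcript differed.

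Acot3, which encodes a peroxisomal enzyme, was read only by an s-type probe set. It gave 5.55 and 6.55 in the knockout, against 5.49 and 5.34 in the wild type. A single knockout array, replicate 2, stood clear of the other 3, and the mean difference of 0.64 ± 0.50 was 1.13 in that array and 0.14 in replicate 1, each against the wild-type mean. The 2 remaining genes of the cluster, Acot5 and Acot6, were not among the members. Their differences were -0.02 ± 0.04 and -0.09 ± 0.14, with overlapping groups. Acot5, with a mean of 3.68 over all arrays, lay below the brightness limit, and Acot6, with a mean of 4.99, lay close to it. Their values therefore do not show whether either transcript differed.

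**Figure D1:**
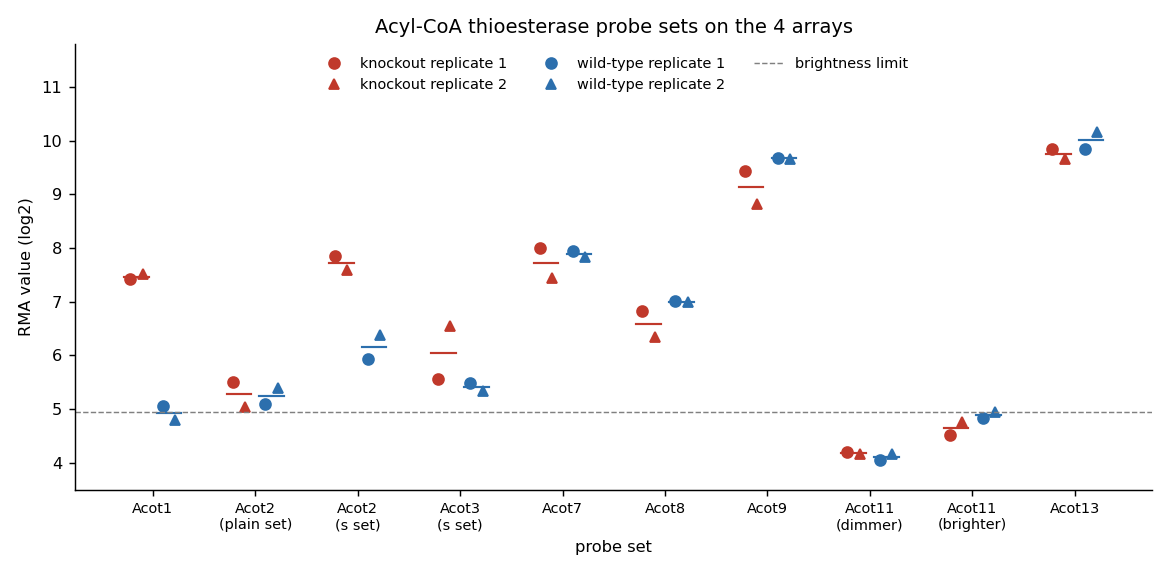
RMA values (log2, vertical axis) of the 10 Acot probe sets, with knockout arrays in red and wild-type arrays in blue, circles for replicate 1 and triangles for replicate 2. Bars are group means, and the dashed line is the brightness limit of 4.94. Acot1 and the s set of Acot2 are the sets whose mean is at least 2-fold higher in the knockout and whose groups do not overlap.

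Neighbouring genes showed no difference of that size. The 4 nearest genes on each side that have a probe set of their own were Rbm25, Papln, Numb and Riox1 before Acot2, and Dnal1, Pnma1, Mideas and Ptgr2 after Acot6. In the brightest probe set of each, the difference lay between -0.30 and 0.48. Of these genes, 4 were higher in both knockout arrays, 2 lower in both and 2 overlapping. Among all tested genes, 26.3% were higher in both and 32.5% lower in both. Papln and Pnma1 lay below the brightness limit. A dimmer Rbm25 set differed by -0.19. The cluster itself spans 122 kb from the start of Acot2 to the end of Acot6. Mmp14 lies on another chromosome, and the brighter of its probe sets read 5.83 and 5.68 in the knockout, against 8.92 and 8.73 in the wild type.

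**Figure D2:**
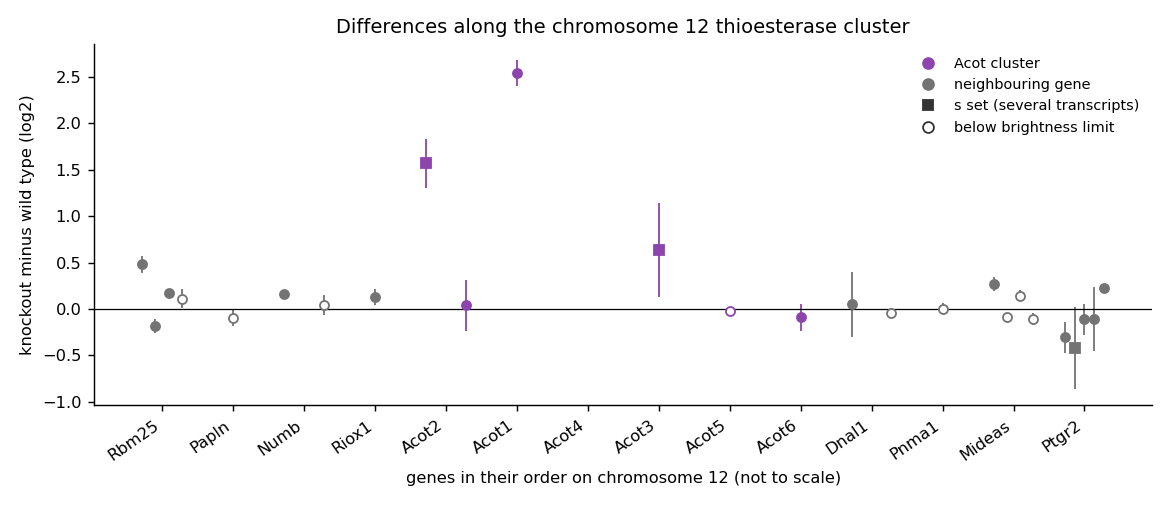
Difference between genotypes (knockout minus wild type, log2, vertical axis) for every single-gene probe set of the 6 Acot genes of chromosome 12 (purple) and of 8 neighbouring genes (grey), in gene order along the horizontal axis. Bars are SE (n = 2 per group), squares are s-type sets, open symbols lie below the brightness limit, and Acot4 has no set of its own. Acot1 at 2.54 and the s set of Acot2 at 1.57 stand above every neighbour, the highest of which is Rbm25 at 0.48.

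The type II members were mostly lower in the knockout, by small amounts. Acot9, a mitochondrial enzyme, gave 9.44 and 8.82 in the knockout, against 9.68 and 9.66 in the wild type. Both knockout arrays were lower, by 0.23 in replicate 1 and 0.85 in replicate 2 relative to the wild-type mean. Acot8, the peroxisomal type II enzyme, gave 6.84 and 6.35 in the knockout and 7.01 and 6.99 in the wild type, a difference of -0.41 ± 0.24 (SE, n = 2 per group), again larger in replicate 2 (-0.65) than in replicate 1 (-0.16).

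Acot13, also known as Them2, a partner of the phosphatidylcholine transfer protein, gave 9.85 and 9.66 in the knockout and 9.85 and 10.2 in the wild type. The groups all but touched, with a difference of -0.25 ± 0.18 that is no larger than the gap of 0.31 between the wild-type arrays. Acot7, the cytosolic enzyme best known from brain, gave 8.0 and 7.44 in the knockout and 7.94 and 7.83 in the wild type. Its knockout arrays fell on either side of the wild-type pair.

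Acot11 was not measurable above the dim end of the array. The brighter of its sets gave 4.53 and 4.77 in the knockout and 4.84 and 4.94 in the wild type, and its dimmer set 4.20 and 4.17 in the knockout, against 4.05 and 4.16 in the wild type. Both sets lie below the brightness limit, so these values do not show whether the transcript differed. Of 9 tested markers of brown fat, 8 had a lower mean in the knockout. Ucp1, the uncoupling protein gene, was at 10.4 and 7.37, against 12.1 and 11.9 in the wild type. The remaining marker, Lhx8, was at 6.16 and 4.88 in the knockout, against 4.70 and 4.73 in the wild type, a difference of 0.81 ± 0.64 (SE, n = 2 per group). It was higher mainly in knockout replicate 1, and passed the brightness limit only through that array. Over all 11078 genes tested by their brightest probe set, 5922 had a lower mean in the knockout and 5152 a higher one.

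Of the 10 member probe sets, 4 were higher in both knockout arrays, 4 were lower in both and 2 overlapped. Without the 2 dim sets of Acot11, 1 in each direction, these counts were 3, 3 and 2 of the 8 that passed the brightness limit. Of all 16329 tested probe sets, 25.6% were higher in both knockout arrays and 32.8% lower in both. A difference of at least 2-fold without overlap was reached by 2 member sets, those of Acot1 and the s set of Acot2, which were higher in the knockout, as were 1.07% of all tested sets. The same in the lower direction was reached by 0 members and by 2.07% of tested sets. These shares are given for scale, since the members were picked with this comparison known. The median difference was -0.06 over the 10 sets, of which 8 passed the brightness limit, and -0.03 over all tested sets. In limma with Benjamini-Hochberg adjustment at 0.05, 0% of the tested probe sets were called in either direction, the members among them, although 1512 had an unadjusted p under 0.05 and were higher and 1988 were lower.

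The knockout arrays were unlike each other in ways that touch some members. They differed by a median of 0.214 over the tested probe sets, against 0.0800 between the wild-type arrays. Skeletal muscle markers, 17 of 18 listed genes measured, had median values of 4.82 and 11.1 in knockout replicates 1 and 2, against 4.81 and 6.24 in wild-type replicates 1 and 2, and on the log2 scale their summed level was 8.99 and 15.6, against 9.03 and 11.7. Epidermis and hair follicle markers, 16 of 16 measured, had medians of 9.44 and 4.68, against 5.80 and 6.40, and summed levels of 13.9 and 9.79, against 10.3 and 11.9. The fast myosin gene Myh4 was at 4.21 and 12.4 in the knockout arrays, against 4.09 and 4.15. The summed muscle level of 11.7 in wild-type replicate 2, against 9.03 in replicate 1, shows muscle signal there too, which Myh4 does not. White adipocyte markers, 9 of 12 measured, had medians of 11.1 and 10.6 in the knockout, against 10.7 and 10.7 in the wild type. Of the 8 tested, 4 had a higher mean in the knockout and 4 a lower one. Single genes among them differed more. The leptin gene Lep was at 6.95 and 4.48, against 10.7 and 10.7. Dgat2, an enzyme gene of triglyceride synthesis, differed by -2.19 ± 0.20 (SE, n = 2 per group). Adig (0.82 ± 0.06) and Cebpa (0.28 ± 0.09) were higher in both knockout arrays. Luminal epithelial markers, 12 of 13 measured, had medians of 7.64 and 7.20 in the knockout, against 7.05 and 5.85 in the wild type. All 11 that were tested had a higher mean in the knockout, 8 of them in both arrays. Over all 11078 genes tested by their brightest probe set, 5152 had a higher mean and 26.3% were higher in both knockout arrays. The estrogen receptor gene Esr1 was below the brightness limit.

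Set against the mean of the wild type, Acot1 was higher by 2.49 in knockout replicate 1, the array with the highest epidermal signal. In knockout replicate 2, the array with the highest muscle signal, it was higher by 2.60. The s set of Acot2 was 1.70 and 1.44 above the wild-type mean in the knockout replicates. Acot3 and the lower values of Acot8, Acot9 and Acot7 went with knockout replicate 2, the array with the highest muscle signal. The part of either tissue in these values, those of Acot1 and Acot2 included, was not tested.

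**Figure D3:**
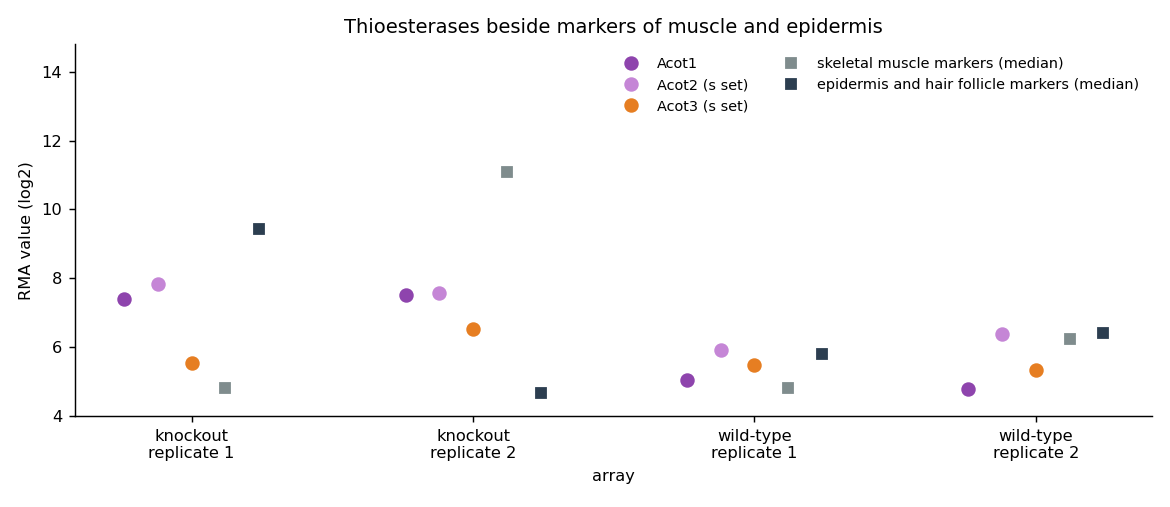
RMA values (log2, vertical axis) of Acot1, the s set of Acot2 and the s set of Acot3 on each array (horizontal axis), beside the median over skeletal muscle markers (grey squares) and over epidermis and hair follicle markers (dark squares). In knockout replicates 1 and 2, Acot1 is at 7.41 and 7.52, the muscle median at 4.82 and 11.1 and the epidermal median at 9.44 and 4.68.

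The probe sets whose values over the 4 arrays were most like those of Acot1 belonged to Slc27a1, Net1, Anxa8 and St3gal6. Likeness was the Euclidean distance between profiles of 4 arrays, each taken relative to its own wild-type mean. The nearest 5 among the tested sets of other genes were 2 sets of Slc27a1 at 0.427 and 0.438, then Net1 at 0.454, Anxa8 at 0.496 and St3gal6 at 0.582. With 4 arrays, any gene with a large and even difference comes out as alike. By the same measure the s set of Acot2 was at 1.49 and its plain set at 3.58.

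Acot9 has a close relative, the intronless gene Acot10, and their probe sets ran together. The s-type set annotated to Acot10 gave 9.59 and 8.84 in the knockout, against 9.79 and 9.78 in the wild type. Relative to their own wild-type means the 2 sets differed by at most 0.103 on any array. Acot12, a cytosolic enzyme that splits acetyl-CoA, was dim, at 4.81 and 4.98 in the knockout and 4.91 and 4.79 in the wild type.

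Other genes that hydrolyse thioesters or coenzyme A were mostly lower. The list of 19 genes holds Acot5, Acot6, Acot10 and Acot12 as well. Of the 13 tested, 8 were lower in both knockout arrays, the s-type set of Acot10 among them, and 2 higher in both. The list's median was -0.32. That median was -0.20 without knockout replicate 2 and -0.09 with the dim genes included. Over all 11078 genes tested by their brightest probe set, 32.5% were lower in both, 26.3% were higher in both, and the median was -0.02. Lower were Nudt7 (-0.64 ± 0.30, SE, n = 2 per group) and Nudt19 (-0.51 ± 0.06), which break down coenzyme A in peroxisomes, the mitochondrial thioesterase gene Them4 (-0.51 ± 0.24), and Lypla1 (-0.57 ± 0.32), Abhd17a (-0.32 ± 0.06), Abhd17b (-0.30 ± 0.07) and Abhd17c (-0.32 ± 0.18), which take fatty acids off proteins. A dimmer set of Abhd17b differed by 0.32. Hibch, an enzyme of valine breakdown, was higher by 0.22 ± 0.15 and Lypla2 by 0.10 ± 0.06. The lysosomal enzyme genes Ppt1 (-0.09 ± 0.12) and Ppt2 (0.04 ± 0.09) overlapped between groups, although a dimmer Ppt1 set was lower by 0.48. Baat, Olah, Them5 and Them6 lay below the brightness limit, with differences between -0.16 and 0.29. None of the 13 passed in limma with Benjamini-Hochberg adjustment. Of them, 4 had an unadjusted p under 0.05, as had 2439 of all 11078 tested genes.

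The acyl-CoA synthetases, which make the thioesterases' substrates, held large differences of both signs. Slc27a1, a fatty acid transporter with synthetase activity, gave 9.85 and 10.5 in the knockout, against 7.79 and 7.73 in the wild type. Both knockout arrays were clear of the wild type, by 2.40 ± 0.30 or 5.27-fold (SE, n = 2 per group), and its other probe set differed by 2.71. Acss2, which makes acetyl-CoA from acetate, gave 7.58 and 6.39 in the knockout, against 9.91 and 9.80 in the wild type, lower by 7.31-fold (-2.87 ± 0.60). Its other probe set was lower by a similar amount (-2.75). Acsm3, a medium-chain synthetase gene, was 1.11 ± 0.78 higher and the dim Acsm5 0.87 ± 0.44, each mainly in 1 knockout array. Acsm3 passed the brightness limit only through knockout replicate 2, at 6.41. It was at 4.85 in knockout replicate 1 and at 4.57 and 4.47 in the wild type. Of the 11 tested genes, 2 were higher in both knockout arrays and 5 lower in both, against 26.3% and 32.5% of all tested genes. The list's median was -0.32. That median was not stable, at -0.19 when knockout replicate 1 was left out, at -0.08 when wild-type replicate 2 was, and at 0.01 with the dim genes included. None passed in limma, where Slc27a1 had a Benjamini-Hochberg adjusted p of 0.0971 and Acss2 of 0.113. An unadjusted p under 0.05 was found for 3 of the 11, and for 2439 of all 11078 tested genes.

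Genes that supply and carry coenzyme A were lower in most cases. All 13 measured genes were tested. Of these, 8 were lower in both knockout arrays and 3 higher in both, against 32.5% and 26.3% of all tested genes. The list's median was -0.34. That median was -0.22 in knockout replicate 1 and -0.47 in replicate 2, the array with the highest muscle signal. Pank1, a kinase for the first step of coenzyme A synthesis, gave 7.44 and 6.51 in the knockout, against 8.11 and 8.53 in the wild type (-1.35 ± 0.51). Ppcs, the next enzyme, was lower by 0.77 ± 0.12 (SE, n = 2 per group), and Coasy, which completes the synthesis, by 0.46 ± 0.20. The acyl-CoA-binding protein gene Acbd4 was lower too (-0.77 ± 0.51). None passed in limma, with an adjusted p of 0.118 for Ppcs. An unadjusted p under 0.05 was found for 5 of the 13, and for 2439 of all 11078 tested genes.

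Mitochondrial beta-oxidation genes were mostly lower. Of 16 tested genes, 11 were lower in both knockout arrays and 0 higher in both, against 32.5% and 26.3% of all tested genes. The list's median was -0.38. That median was -0.10 in knockout replicate 1 and -0.72 in replicate 2, the array with the highest muscle signal. Lower were the carnitine transferase genes Cpt1b (-0.81 ± 0.14, SE, n = 2 per group) and Cpt2 (-0.70 ± 0.27), the electron transfer gene Etfdh (-0.65 ± 0.45) and the thiolase gene Acaa2 (-0.57 ± 0.36). None passed in limma with Benjamini-Hochberg adjustment. An unadjusted p under 0.05 was found for 2 of the 16, and for 2439 of all 11078 tested genes.

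Peroxisomal beta-oxidation genes went both ways. Of 16 tested, 3 were higher in both knockout arrays and 6 lower in both, against 26.3% and 32.5% of all tested genes. The list's median was 0.01 and ran from -0.15 to 0.09 with 1 array left out. Ehhadh, the bifunctional enzyme gene and a well-known PPAR-alpha target in liver, gave 9.20 and 8.65 in the knockout, against 7.97 and 8.12 in the wild type, higher by 0.88 ± 0.29 (SE, n = 2 per group). The other bifunctional enzyme gene, Hsd17b4 (-0.58 ± 0.36), the peroxisomal transporter gene Abcd3 (-0.57 ± 0.25) and the racemase gene Amacr (-0.46 ± 0.25) were lower. None passed in limma, and 2 of the 16 had an unadjusted p under 0.05, as had 2439 of all 11078 tested genes.

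**Figure D4:**
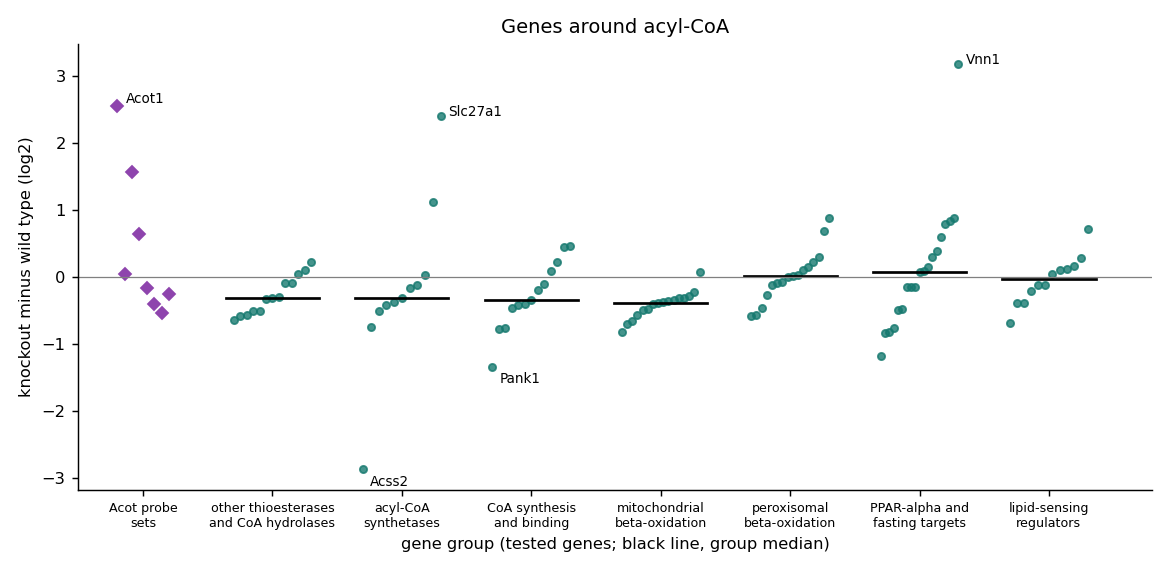
Difference between genotypes (knockout minus wild type, log2, vertical axis) for the 8 tested Acot probe sets (diamonds) and for the tested genes of 7 groups around acyl-CoA (circles), with the group median as a black line. The 7 group medians lie between -0.38 and 0.07, and Acot1, Slc27a1, Vnn1, Acss2 and Pank1 lie outside the bulk of their groups.

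Genes known to respond to PPAR-alpha or to fasting in other tissues, the setting in which Acot1 is best known, were divided. Of 19 tested genes, 7 were higher in both knockout arrays and 7 lower in both, against 26.3% and 32.5% of all tested genes. The list's median was 0.07 and ran from -0.03 to 0.03 with 1 array left out. Ehhadh, Cpt1b and some others stand on this list and on a list above. Vnn1, whose enzyme releases the coenzyme A precursor pantothenate, gave 8.32 and 8.94 in the knockout, against 5.09 and 5.82 in the wild type. That is 9.02-fold higher (3.17 ± 0.48, SE, n = 2 per group), the largest difference on the list. Txnip, a glucose-responsive gene, was higher by 0.83 ± 0.08, the glycerol channel gene Aqp7 by 0.79 ± 0.13 and the pyruvate dehydrogenase kinase gene Pdk4 by 0.59 ± 0.35. A dimmer Aqp7 set differed by 0.06. Lower were the lipid droplet protein gene Plin5 (-0.83 ± 0.25) and the uncoupling protein gene Ucp3 (-0.77 ± 0.15), along with Cpt1b. None passed in limma, with Benjamini-Hochberg adjusted p of 0.0971 for Vnn1 and 0.102 for Txnip. An unadjusted p under 0.05 was found for 7 of the 19, and for 2439 of all 11078 tested genes.

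The receptor transcripts did not show the pattern of Acot1. Ppara gave 7.11 and 7.55 in the knockout, against 7.83 and 8.21 in the wild type, lower by 0.69 ± 0.29 (SE, n = 2 per group), and both of its other sets were lower as well (-0.30 and -0.55). Pparg, the receptor of fat cells, overlapped between groups (-0.21 ± 0.17), as did Ppard (0.12 ± 0.17) and the dim Foxo1 (0.01 ± 0.06). Foxo3, a forkhead factor active in fasting, gave 8.47 and 8.43 in the knockout and 7.67 and 7.81 in the wild type (0.71 ± 0.07), with 0.80 in a further set and -0.01 in a dim one. Among the genes of the partner receptors, Rxrg was lower (-0.39 ± 0.33), whereas Rxrb (0.28 ± 0.03) and Rxra (0.11 ± 0.03) were higher in both knockout arrays. Esrra, a regulator of mitochondrial genes, was lower (-0.39 ± 0.07). Of the 12 tested regulators, 3 were higher in both knockout arrays and 4 lower in both, against 26.3% and 32.5% of all tested genes. The list's median was -0.04 and ran from -0.06 to 0.06 with 1 array left out. None passed in limma, where Foxo3 had a Benjamini-Hochberg adjusted p of 0.106. An unadjusted p under 0.05 was found for 4 of the 12, and for 2439 of all 11078 tested genes. Ppargc1a was not analysed here.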

How the data were processed

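RNA of whole mammary glands was measured on 4 Affymetrix arrays of 3-prime probe sets, 2 per genotype. The deposited values were made by the authors with RMA and affy (per the submitters' processing notes, without versions) and are log2 expression values, a scale read from the values themselves. RMA equalises the arrays' distributions, which hides a shift shared by most genes. Detection calls were not at hand, and precision is limited by the 4 arrays.

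Of 45141 probe sets, 104 were controls and 28898 were annotated to 1 gene, 28689 of these matched by gene ID to a RefSeq table of GRCm38.p6. The 16329 with a mean of at least 4.94 (the median of all probe-set means) entered limma 3.58.1 in R 4.3.3, with no covariate and Benjamini-Hochberg adjustment at 0.05. SEs are from the pooled variance within both groups. Gene lists used the brightest probe set of each gene. List genes named were all other thioesterases, up to 4 per list with the largest difference without overlap (up to 8 for PPAR-alpha targets), and set receptors. Acot genes were named in full, and Myh4, Ucp1, Lhx8, Esr1, Rxra and Rxrb were named after their values were seen. Members and lists were chosen with earlier results of these data known. P-values measure only the spread between these samples. The fit was checked on simulated data. Alternatives were 3 scalings, other brightness filters, other choices of probe set, other variance priors, weighted arrays, a block for the replicate number and leaving out single arrays.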

Additional observations from a re-analysis of the deposited data

How the results depend on the processing

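Under 3 other scalings Acot1 stayed between 2.52 and 2.55, and with 1 array left out between 2.42 and 2.67. The s set of Acot2 lay between 1.34 and 1.79 with 1 array left out. The mean of both Acot2 probe sets was 0.80, since the plain set, close to the brightness limit, gave 0.04 ± 0.27. For Acot3 the difference was 1.13 without knockout replicate 1 and 0.14 without knockout replicate 2, and Acot7 was 0.11 without knockout replicate 2 against -0.45 without knockout replicate 1. Of 82 member values under alternatives, 4 changed sign and 80 moved by less than 1 SD. With 2 arrays per group, leaving 1 out cannot shift a difference by more than the SD within groups. The replicate block leaves the difference unchanged. Those alternatives could not count as moved, so the 80 does not measure stability. Of 135 list medians under alternatives, 16 changed sign and 108 moved by less than 1 SD.

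With all 4 arrays, limma called 0 probe sets in each direction under every scaling, brightness filter, prior and weighting tried and with a replicate block, except that it called 2 higher and 7 lower when probe sets that can match several transcripts were left out. With 1 array left out, the counts ran from 0 to 2099 higher and from 0 to 4057 lower, both highest without knockout replicate 1, with 1072 higher and 833 lower without knockout replicate 2 where the single knockout array is taken to vary as the wild type does. Among pathway genes the count ran from 0 to 52. Probe sets without overlap numbered 6546 higher with no brightness filter and 2309 higher and 3447 lower with the 75th percentile filter. With 1 array left out they ran from 5151 to 6873 higher and from 6333 to 8358 lower. The same-numbered arrays did not deviate together (r = -0.05 over 16329 probe sets). The cause of these shifts was not tested.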
